A study of Mus musculus with 59 samples.

Results

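The response to the peptide combination IP118/PY115 was compared between 2 nuclei of the mouse hypothalamus, the paraventricular nucleus (PVN) and the arcuate nucleus (ARC). For every gene the effect of treatment in PVN minus its effect in ARC was estimated, so that a positive value marks a gene raised more, or lowered less, in PVN. The comparison took all libraries of both nuclei, 39 of the 59 in the series: 10 vehicle and 10 treated from PVN, 9 vehicle and 10 treated from ARC. All mice were of strain C57BL/6. Treated mice had 1 intraperitoneal injection of IP118/PY115, controls had vehicle, and brains were taken 4 h later. Laser capture from 10 µm frozen sections gave 4 mm² of each region per animal, so a library holds neurons, glia and vessels together, and fewer cells of a type cannot be told apart from less RNA per cell. The series title names obese-diabetic mice, whereas the sample labels give the strain alone. The labels do not tie libraries to animals, and the p-values take the libraries of both nuclei as independent.

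PYY and GLP-1 are gut hormones released after a meal, and the series concerns joint activation of their receptors. The ARC holds neurons that express the hunger peptides Agrp and Npy and neurons that express the satiety precursor Pomc, and it lies next to the median eminence, where blood-borne signals reach the brain. The PVN receives their projections, and its Crh, Trh, Avp and Oxt neurons drive pituitary hormone release and autonomic output. Crh neurons start the stress axis, whose end product, corticosterone, acts back on both nuclei through the glucocorticoid receptor.

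Library totals ran from 3964093 to 16244376 counts, with group medians between 8612590 and 12241201. The dissections carried the markers of their nuclei: the 8 PVN markers together ranged from 9111 to 21895 CPM (counts scaled to the library total) in PVN libraries and from 266 to 737 CPM in ARC libraries. The 11 listed ARC markers, 10 of them tested, ranged from 2041 to 4272 CPM in ARC and from 77.7 to 126 CPM in PVN. Replicates are numbered from 1 within each group in the order of deposit, and in all 4 groups the library numbered 1 stood apart. Over 22 glucocorticoid-responsive genes, such as Fkbp5, Zbtb16 and Sgk1, the mean log2 CPM of PVN vehicle library 1 was 5.33 against 4.21 to 4.85 in the other vehicle libraries, and that of PVN treated library 1 was 4.26 against 5.13 to 5.56. In ARC, vehicle library 1 stood at 4.96 against 3.74 to 4.43 and treated library 1 at 4.04 against 4.76 to 5.23. Each of these libraries thus lay among or toward the values of the other treatment, and whether its label is right was not tested. All were kept under their labels, and results are given with and without them. A further library, ARC treated 2, held 6119 CPM of 12 mature oligodendrocyte markers against medians of 826 CPM in ARC vehicle and 984 CPM in ARC treated libraries.

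**Figure D1:**
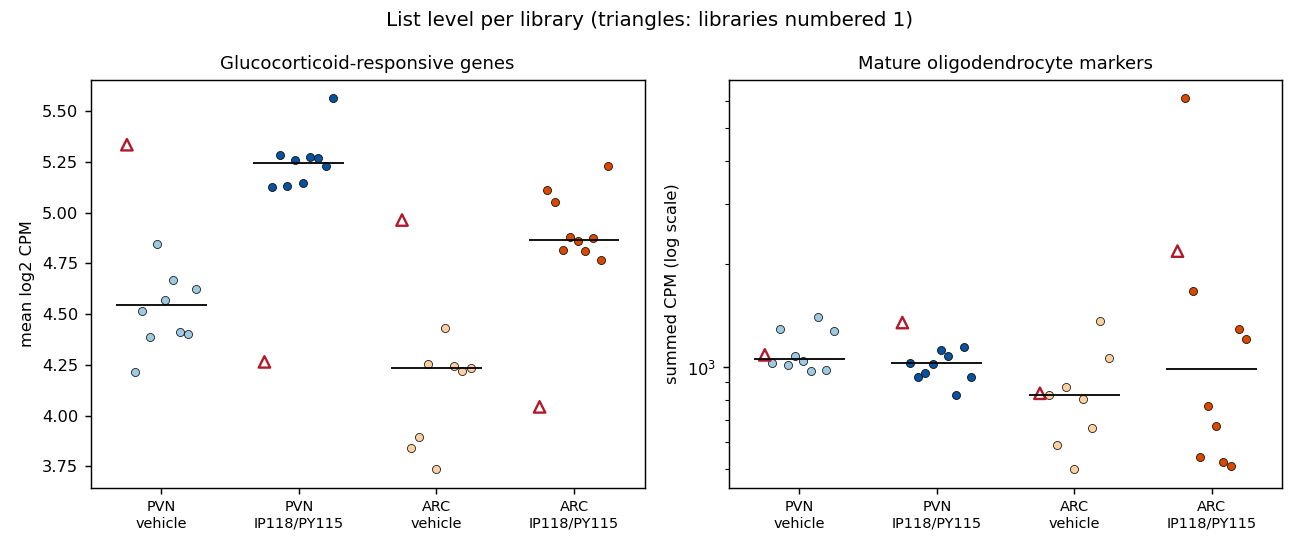
Level of 2 gene lists in each of the 39 libraries: the mean log2 CPM of 22 glucocorticoid-responsive genes (left) and the summed CPM of 12 mature oligodendrocyte markers on a log axis (right), with group medians as lines. The triangles (libraries numbered 1) sit toward the other treatment on the left, and ARC treated library 2 stands at 6119 CPM on the right.

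Few genes responded differently enough in the 2 nuclei to pass the test, and most of them rose in PVN without a rise in ARC. Tmem200a, Tsc22d1 and Apobec1 had more positive effects in PVN, and Appl2 had a more positive effect in ARC. These 4 were all the calls among 13979 genes tested (0.0286%; edgeR quasi-likelihood test, Benjamini-Hochberg adjusted p, here FDR, under 0.05), 3 positive (0.0215%) and 1 negative (0.00715%). At an unadjusted p under 0.05 there were 857 genes, 400 positive (2.86%) and 457 negative (3.27%). In the same fit, treatment changed 138 genes in PVN (0.987%; 118 rose, 0.844%, and 20 fell, 0.143%) and 10 genes in ARC (0.0715%; 8 rose, 0.0572%, and 2 fell, 0.0143%), with 1 gene called in both. A larger number of calls in PVN does not by itself show a stronger response there.

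Tsc22d1, a leucine-zipper transcription regulator, lies on chromosome 14 (chr14:76414961-76507765, GRCm38, plus strand). In PVN it ran from 570 to 884 CPM with a median of 622 in vehicle libraries and from 570 to 1013 CPM with a median of 892 in treated libraries. The overlap came from the libraries numbered 1: without them the vehicle libraries reached 688 CPM and the treated ones began at 796 CPM. In ARC the vehicle libraries ran from 518 to 611 CPM (median 559) and the treated from 466.1 to 565 CPM (median 535). The log2 effect was 0.43 ± 0.07 (SE) in PVN, where 9 of 10 treated libraries exceeded the vehicle median, and -0.08 ± 0.07 in ARC, where 1 of 10 did. The difference was 0.51 ± 0.10 (FDR = 0.0262), and 0.64 ± 0.07 without the libraries numbered 1.

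Tmem200a encodes a membrane protein and lies on the minus strand (chr10:25912331-26079052). It was scarce in PVN, at 8.47 ± 0.991 CPM (SD, n = 10) with vehicle and 13.6 ± 2.13 CPM (n = 10) with treatment, and more abundant in ARC, at 36.03 ± 4.45 CPM (n = 9) and 36.5 ± 4.15 CPM (n = 10). In PVN the vehicle libraries ran from 7.12 to 10.1 CPM and the treated ones from 9.84 to 17.7 CPM, so the groups hardly overlapped, whereas those of ARC, 29.3 to 43.6 and 31.2 to 43.7 CPM, covered the same range. Unlike Tsc22d1, its level in PVN library 1 followed the label, at 8.15 CPM with vehicle and 14.99 CPM with treatment. The difference was 0.66 ± 0.12 (FDR = 0.0262), the smallest unadjusted p of all genes, and 0.60 ± 0.13 without the libraries numbered 1.

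Apobec1, the cytidine deaminase that edits apolipoprotein B mRNA (chr6:122577792-122602444), was low everywhere, with a mean of 4.29 CPM, and is named because it passed although it lies under the 5 CPM set for other genes. In PVN it stood at 3.53 ± 1.10 CPM with vehicle and 6.75 ± 2.51 CPM with treatment (log2 effect 0.90, FDR = 0.0228). In ARC it stood at 4.13 ± 1.15 and 2.74 ± 0.850 CPM (-0.58, FDR = 0.434). The 2 effects had opposite signs, with 9 of 10 treated PVN libraries above the PVN vehicle median and 1 of 10 treated ARC libraries above the ARC one. The difference was 1.49 ± 0.31 (FDR = 0.0479), and 1.82 ± 0.28 without the libraries numbered 1.

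Appl2, an endosomal adaptor protein that binds adiponectin receptors (chr10:83600033-83648738), was the negative call. In ARC it ran from 70.4 to 85.6 CPM (median 78.8) with vehicle and from 82.8 to 114 CPM (median 98.2) with treatment. All 10 treated ARC libraries exceeded the vehicle median. In PVN it ran from 60.04 to 87.5 CPM (median 70.0) with vehicle and from 55.9 to 70.3 CPM (median 64.4) with treatment, where 1 of 10 did. Neither effect passed alone (PVN -0.16, FDR = 0.335; ARC 0.29, FDR = 0.056), while their difference did (-0.45 ± 0.09, FDR = 0.0479; -0.46 ± 0.10 without the libraries numbered 1).

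**Figure D2:**
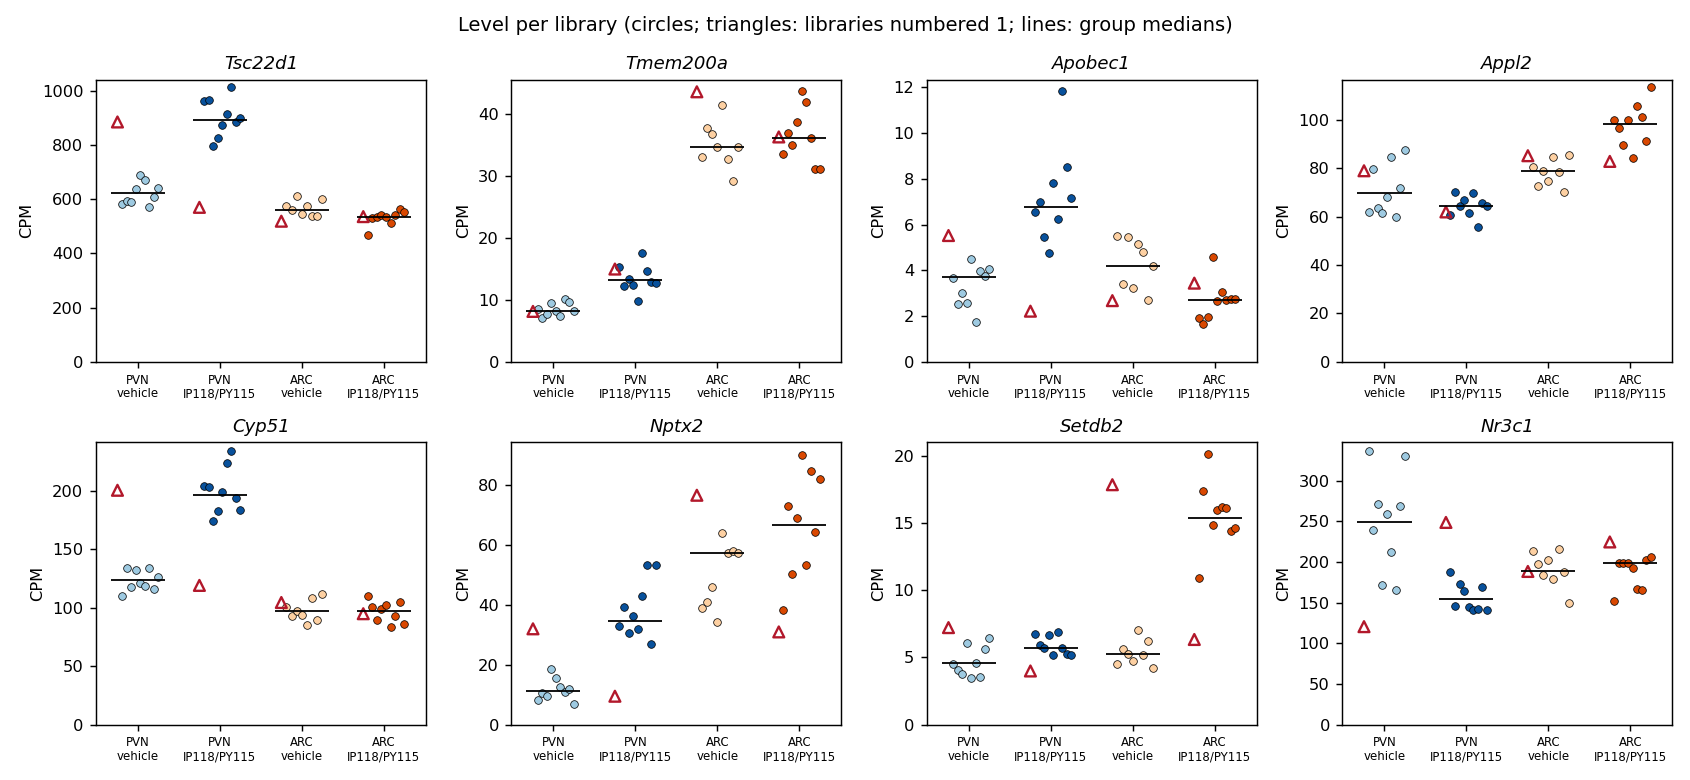
CPM of 8 genes in each library of the 4 groups, with group medians as lines and the libraries numbered 1 as triangles. Apart from the triangles, the PVN groups do not overlap for Tsc22d1, Apobec1, Cyp51 and Nptx2 and the ARC groups do not for Setdb2, while a narrow overlap remains for Tmem200a in PVN and Appl2 in ARC.

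Each of the 4 calls lies close to the threshold. With ARC treated library 2 left out none passed (FDR = 0.0623 for Tmem200a and Tsc22d1, 0.0866 for Appl2 and Apobec1), with 755 genes at an unadjusted p under 0.05, although the 4 differences moved little, to 0.65, 0.49, -0.44 and 1.44. None passed with marker covariates, the mean log2 CPM of the mature oligodendrocyte markers and of the markers of the library's own nucleus. There the FDR was 0.0684 for Tmem200a, Tsc22d1 and Appl2 and 0.111 for Apobec1. Without the libraries under 0.5 of the median total none passed either (FDR = 0.0768 for Tmem200a, 0.129 for the others). With limma-voom in place of edgeR, Tsc22d1 and Appl2 passed, and Tmem200a (FDR = 0.0551) and Apobec1 (0.104) did not. Appl2 and Apobec1 also fell short with library totals alone, with no filter and with a log10 library total covariate. Without the vehicle libraries labelled 5553 to 5557 Tmem200a passed (FDR = 0.00997), and Appl2 and Apobec1 (0.0933) and Tsc22d1 (0.327) did not. This separate run of numbers holds vehicle libraries of both nuclei and no treated one. Whether it differs from the other libraries in something besides treatment was not tested. All 4 genes kept their sign in each of 13 alternative analyses and each of 39 fits with 1 library left out. These fits share most or all of their libraries, so a change of sign was unlikely from the start.

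The other genes chosen by p did not pass with all libraries. Among the 24 genes of smallest p with a mean of at least 5 CPM, 21 fell short (FDR 0.101 to 0.394), 16 with a positive and 5 with a negative difference. Of the 16, 12 also rose in PVN at an FDR under 0.05, where 0.844% of all genes did. The 16 were chosen by their difference, so this count follows largely from the choice. Of the 21, the gene of smallest p was Cyp51, the lanosterol demethylase of cholesterol synthesis. It rose in PVN from a median of 124 CPM (110 to 201) to 197 CPM (119 to 234), a log2 effect of 0.55 (FDR = 0.00048), and stood in ARC at medians of 97.5 and 96.9 CPM. Its difference of 0.58 ± 0.12 had an FDR of 0.101. Ift57, a subunit of the transport complex that builds cilia, rose in PVN from a median of 57.1 to 84.0 CPM, with medians of 37.1 and 36.7 CPM in ARC. Its difference was 0.52 ± 0.12 (FDR = 0.2). Prss23, a secreted serine protease, had a difference of 0.85 ± 0.21 (FDR = 0.273) after a PVN effect of 0.98 and an ARC effect of 0.13. Igfbp3, which binds insulin-like growth factors, stood at 0.69 ± 0.19 (FDR = 0.394). Chgb, a dense-core granule protein of neuroendocrine cells, had a small difference of 0.30 ± 0.08 (FDR = 0.335), with all 10 treated libraries above the vehicle median in PVN and 0 of 10 in ARC.

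Without the 4 libraries numbered 1, 46 of 13952 genes passed for the difference (0.33%), 36 positive (0.258%) and 10 negative (0.0717%), and they included the 4 genes called with all libraries. These libraries were picked for the levels of treatment-responsive genes, so p-values without them are too small, and the genes named from this fit were chosen after their values were seen. All 36 positive and all 10 negative genes had the same sign with every library kept. The 2 fits share all the other libraries, so this agreement was close to fixed in advance and lends no support. Treatment changed 410 genes in PVN (2.94%) and 188 in ARC (1.35%) in this fit. Of the 36 positive genes, 34 rose in PVN; their median log2 effect was 0.74 in PVN and 0.0026 in ARC, where they ranged from -0.69 to 0.63. Another, the transcription factor Klf6, fell in ARC by 0.38, and Zfp46 passed in neither nucleus. Of the 10 negative genes, 8 rose in ARC, with a median effect of 0.60 against -0.09 in PVN, and 2 fell in PVN. No gene among the 46 passed in both nuclei. The 46 were chosen by their difference, and the 34 and the 8 also by their rise in 1 nucleus. The medians and the lack of overlap therefore follow largely from the choice.

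**Figure D3:**
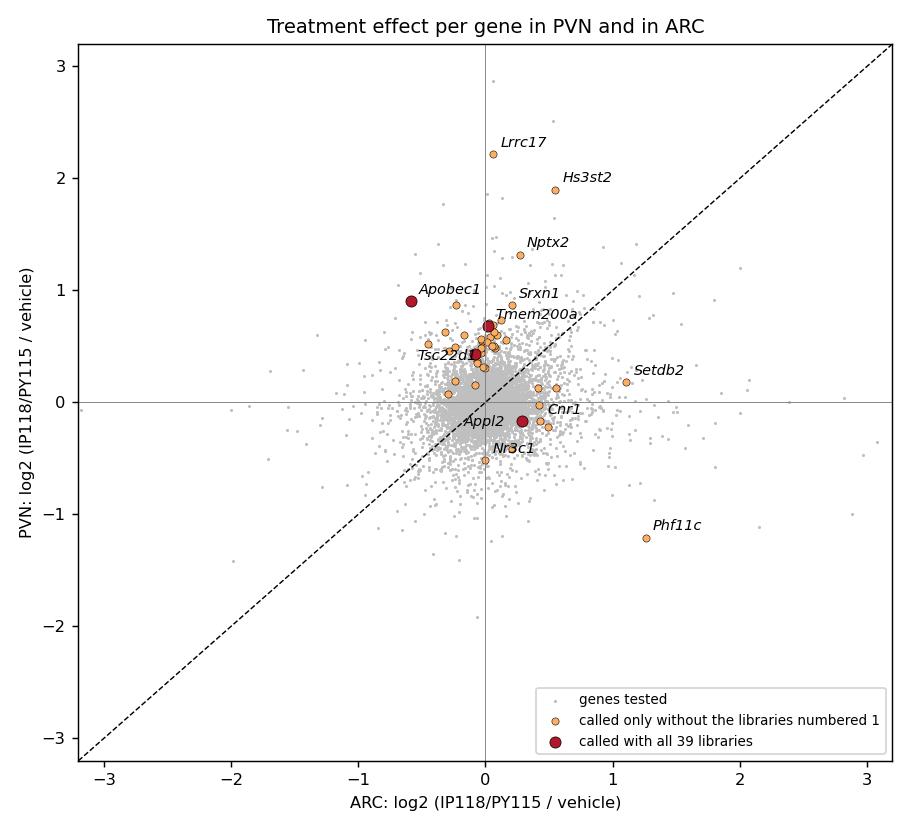
Log2 treatment effect of each tested gene in ARC (x) and PVN (y) with all 39 libraries, the dashed line marking equal effects; 2 genes lie outside the axes. Genes called with all libraries are red and those called only without the libraries numbered 1 are orange, most of them high on the PVN axis near 0 on the ARC axis.

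Of 22 immediate early genes, which neurons switch on when they fire, 11 were positive (median difference 0.01), and of 20 late activity-regulated genes 12 were (0.05), none passing with all libraries. Nptx2, a synaptic protein whose gene follows neuronal firing, rose in PVN from a median of 11.2 CPM (7.02 to 31.9) to 34.6 CPM (9.45 to 53.2). In ARC, where it was more abundant, the medians were 57.03 and 66.5 CPM with overlapping ranges. Its difference was 1.05 ± 0.35 with all libraries (FDR = 0.6) and 1.27 ± 0.24 without those numbered 1 (FDR = 0.00899). Fosb, an activity-induced transcription factor, had medians of 3.74 and 24.9 CPM in PVN and 3.81 and 4.19 CPM in ARC, but spread so widely within groups that its difference of 1.11 ± 0.64 did not pass with all libraries (FDR = 0.879) or without those numbered 1 (1.47 ± 0.58, FDR = 0.491). Vgf, a neuropeptide precursor, had a difference of 0.46 ± 0.19 (FDR = 0.742), and Fos itself -0.38 ± 0.41 (FDR = 0.946). Akap7, an anchor for protein kinase A, rose in PVN from a median of 86.3 to 144 CPM and had medians of 47.03 and 50.1 CPM in ARC. Its difference was 0.51 with all libraries (FDR = 0.468) and 0.65 ± 0.11 without those numbered 1 (FDR = 0.00118).

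Of 28 tested heparan sulfate enzymes and core proteins 16 were positive (median difference 0.04). The 2 that passed without the libraries numbered 1, where 0.258% of all genes passed in this direction, are both enzymes that add sulfate to the chains, and nothing is read from them about the list. Hs3st2 rose in PVN from a median of 3.35 CPM (1.47 to 16.6) to 20.1 CPM (3.03 to 30.7) and stayed under 2.05 CPM in every ARC library. Hs3st1 had medians of 6.98 and 12.4 CPM in PVN and 23.9 and 25.2 CPM in ARC. Without the libraries numbered 1 their differences were 1.92 ± 0.44 (FDR = 0.036) and 0.73 ± 0.17 (FDR = 0.0375), and with all libraries neither passed (FDR = 0.772 and 0.767). Other genes called in this direction included Srxn1, which repairs oxidised peroxiredoxins, with medians of 167 and 348 CPM in PVN and 92.2 and 106 CPM in ARC. They also included the thrombin receptor F2r (0.73 ± 0.15), the hypoxia-induced co-regulator Cited2 (0.91 ± 0.19), the matrix protease Adamts1 (1.13 ± 0.24) and the angiogenic factor Pgf (0.84 ± 0.17). With all libraries these genes did not pass. Srxn1 was then at 0.66 (FDR = 0.554), F2r at 0.53 (0.632) and Cited2 at 0.61 (0.76). Adamts1 was at 0.94 (0.351) and Pgf at 0.74 (0.335). Lrrc17, with a mean of 4.76 CPM, had the highest value without the libraries numbered 1, 3.11 ± 0.46, after a PVN effect of 3.24 and an ARC effect of 0.13. With all libraries its difference was 2.16 (FDR = 0.258).

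Among the genes with a more positive effect in ARC, Setdb2, a SET-domain protein of the histone methyltransferase family, had medians of 5.28 CPM (4.18 to 17.8) with vehicle and 15.4 CPM (6.33 to 20.1) with treatment in ARC, where it rose with all libraries (log2 effect 1.11, FDR = 0.00985). The vehicle libraries other than library 1 reached 7.02 CPM and the treated libraries other than library 1 began at 10.9 CPM. In PVN the medians were 4.56 and 5.69 CPM with overlapping ranges. The difference was -0.92 ± 0.29 with all libraries (FDR = 0.5) and -1.22 ± 0.19 without those numbered 1 (FDR = 0.000213). Phf11c, a neighbouring gene on the same strand of chromosome 14, had a mean of 1.03 CPM and also passed in that fit, at -3.10 ± 0.66. With all libraries it was at -2.47 (FDR = 0.335).

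Noct, a clock-regulated phosphatase, rose in ARC with all libraries from a median of 50.8 to 73.2 CPM (FDR = 0.00809), against medians of 47.5 and 51.9 CPM in PVN. Its difference was -0.29 ± 0.10 (FDR = 0.629), and -0.38 ± 0.08 without the libraries numbered 1 (FDR = 0.0174). Cnr1, the cannabinoid receptor of neurons, had ARC medians of 37.5 and 50.5 CPM and PVN medians of 149 and 136 CPM. Its difference was -0.60 with all libraries (FDR = 0.5) and -0.78 ± 0.17 without those numbered 1 (FDR = 0.0201). In ARC its highest library, at 105 CPM, stood apart. It was ARC treated library 2, the one rich in oligodendrocyte markers, and both fits kept it. Tgfb3, a growth factor of the TGF-beta family, was at -0.72 ± 0.19 with all libraries (FDR = 0.335) and at -0.96 ± 0.18 without those numbered 1 (FDR = 0.00427).

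Nr3c1, the glucocorticoid receptor, was one of the 2 negative genes that fell in PVN. Vehicle PVN libraries ran from 120 to 336 CPM (median 249) and treated ones from 140 to 249 CPM (median 155); the lowest vehicle and the highest treated value were those of library 1. In ARC the medians were 188 and 199 CPM. It fell in PVN with all libraries by 0.52 on the log2 scale (FDR = 0.0371), with 0 of 10 treated libraries above the vehicle median. The difference was -0.52 ± 0.18 with all libraries (FDR = 0.632) and -0.65 ± 0.15 without those numbered 1 (FDR = 0.038).

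**Figure D4:**
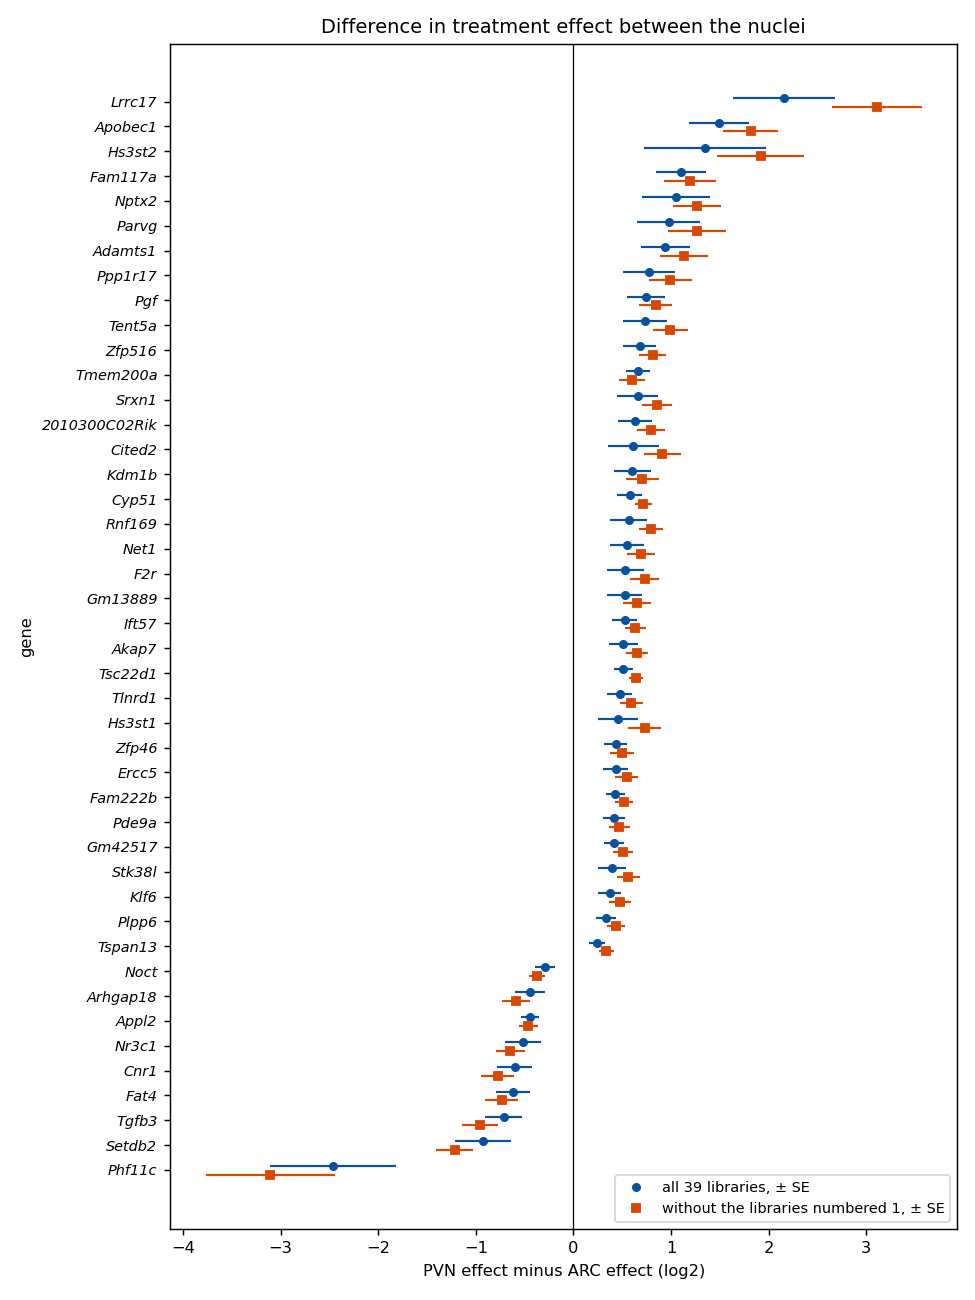
Difference in log2 treatment effect (PVN minus ARC) for 44 of the 46 genes called without the libraries numbered 1, among them the 4 called with all libraries, with bars of 1 SE. Squares (without those libraries) mostly lie farther from 0 than circles (all libraries), on the same side.

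Promoter sequences are shown for 4 of the genes with a larger PVN response without the libraries numbered 1: the carriers of a complete cyclic AMP response element, and the gene with 2 matches to the motif of AP-1, another stimulus-driven transcription factor. RefSeq promoter windows (GRCm38.p6, 250 bases before to 50 after a start, both strands searched) were given for 29 of the 36 positive and 7 of the 10 negative genes. The cyclic AMP response element TGACGTCA occurred in 3 of 41 windows of the positive genes, in 0 of 9 windows of the negative genes and in 1.79% of all 32851 windows. The 3 genes were Hs3st2 (chr7:121392046-121392345, plus strand), Ift57 (chr16:49699044-49699343, plus strand) and the kinase gene Stk38l (chr6:146724680-146724979, plus strand). The AP-1 motif TGAGTCA occurred in 2 of the 41 windows, in 1 of the 9 windows of the negative genes (Arhgap18) and in 5.2% of all. Of the 2 positive genes, F2r held it once, at base -204 from the start, and Srxn1 (chr2:152105274-152105573, plus strand) held it at 2 places. Capitals mark the motif, which begins at base -69 from the start in Hs3st2, -162 in Ift57, -64 in Stk38l, and -102 and -45 in Srxn1. None of the 9 windows of the 4 genes called with all libraries held either motif. A match is a run of letters and no evidence of binding.
Hs3st2: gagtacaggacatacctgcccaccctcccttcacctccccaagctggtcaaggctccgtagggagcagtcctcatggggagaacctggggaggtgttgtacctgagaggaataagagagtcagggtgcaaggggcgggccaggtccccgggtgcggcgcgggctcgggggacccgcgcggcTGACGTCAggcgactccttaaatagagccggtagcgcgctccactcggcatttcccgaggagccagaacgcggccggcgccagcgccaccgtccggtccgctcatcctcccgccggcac
Ift57: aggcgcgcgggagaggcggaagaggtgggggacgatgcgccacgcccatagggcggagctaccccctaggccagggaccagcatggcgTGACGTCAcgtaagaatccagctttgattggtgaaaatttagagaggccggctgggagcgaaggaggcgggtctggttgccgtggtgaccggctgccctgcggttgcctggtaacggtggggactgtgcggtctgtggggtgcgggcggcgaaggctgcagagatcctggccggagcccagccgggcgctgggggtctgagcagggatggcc
Stk38l: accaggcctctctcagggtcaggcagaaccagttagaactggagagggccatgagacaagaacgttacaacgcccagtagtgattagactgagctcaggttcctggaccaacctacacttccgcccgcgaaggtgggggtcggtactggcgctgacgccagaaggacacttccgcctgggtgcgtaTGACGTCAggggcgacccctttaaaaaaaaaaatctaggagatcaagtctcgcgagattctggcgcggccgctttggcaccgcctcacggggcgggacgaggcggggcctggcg
Srxn1: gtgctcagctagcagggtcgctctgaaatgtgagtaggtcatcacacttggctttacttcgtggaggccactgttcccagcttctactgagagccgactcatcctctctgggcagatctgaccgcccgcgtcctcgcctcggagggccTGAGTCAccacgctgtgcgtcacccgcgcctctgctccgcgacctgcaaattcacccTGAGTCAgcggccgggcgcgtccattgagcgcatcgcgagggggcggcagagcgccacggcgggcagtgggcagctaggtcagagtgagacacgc

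The glucocorticoid-responsive genes were higher with treatment in both nuclei. Of 22 tested, 21 had higher treated than vehicle values in PVN (median log2 effect 0.47) and 22 in ARC (0.53), while over all genes 42.6% and 49.7% were higher. For the difference 9 were positive and 13 negative, with a median of -0.03 against -0.02 over all genes, and none of the 22 passed. With all libraries 3 of the 22 rose in PVN, where 0.844% of all genes did, and 1 rose in ARC, where 0.0572% did. Zbtb16, a zinc-finger target of the receptor, had medians of 24.4 and 62.5 CPM in PVN and 16.4 and 48.1 CPM in ARC. It rose in both, by 1.14 (FDR = 0.00808) and 1.17 (FDR = 0.0486), with a difference of -0.03 (95% interval -0.71 to 0.65). Fkbp5, a chaperone that curbs the receptor, had a difference of -0.08 (-0.62 to 0.46), and Cdkn1a, a cell-cycle inhibitor, 0.23 (-0.80 to 1.26). These intervals are wide and allow a difference in either direction.

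Over all genes the 2 nuclei's effects correlated weakly (Pearson r = 0.14, Spearman rho = 0.13 across 13979 genes, which are not independent replicates; the nuclei came from shared animals). Of the 138 genes called in PVN, 115 (83.3%) had the same sign in ARC, against 53.6% of all genes. The 118 that rose had a median log2 effect of 0.49 in PVN, by which they were chosen, and 0.11 in ARC. The 20 that fell had medians of -0.37 and -0.18.

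With all libraries none of the listed appetite and hormone genes passed the test of the difference; without the libraries numbered 1, Nr3c1 of the PVN list did, as given above. The receptor genes had differences of 0.16 ± 0.31 (Glp1r, FDR = 0.97), 0.03 ± 0.21 (Npy2r, FDR = 0.992) and -0.03 ± 0.13 (Npy1r, FDR = 0.986). With vehicle and with treatment the ARC means were 596 and 520 CPM for Agrp, 1217 and 1108 CPM for Npy and 701 and 712 CPM for Pomc; all 3 were under 6 CPM in every PVN group mean, so that their differences rest on few PVN counts. The PVN means with vehicle and with treatment were 213 and 246 CPM for Crh and 607 and 567 CPM for Trh. For vasopressin (Avp) they were 6253 and 6094 CPM, and for oxytocin (Oxt) 7078 and 7589 CPM. Crh was under 0.3 CPM in both ARC groups, and its difference of -1.87 ± 1.05 says nothing of a response in ARC. Cartpt, expressed in both nuclei, had a difference of 0.03 ± 0.15 (95% interval -0.28 to 0.34). Of the 19 tested genes of the arcuate list 10 were positive, and of the 20 of the PVN list 10 were.

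Other lists were described by their counts, beside 44.9% positive over all genes. Of 20 tested genes of the extracellular matrix and its YAP-driven CCN proteins, 16 were positive, with a median difference of 0.18 and medians of 0.08 in PVN and -0.09 in ARC; Adamts1 (0.94 ± 0.25, FDR = 0.351) had the smallest p. Among 13 inflammation genes 12 were positive (median 0.12), led by Socs3, a cytokine feedback inhibitor (1.06 ± 0.41, FDR = 0.698), while Il1rap was negative (-0.39 ± 0.15, FDR = 0.689). With vehicle and with treatment Socs3 had means of 2.07 and 2.57 CPM in PVN. In ARC they were 18.5 and 11.7 CPM, a log2 effect of -0.65. Of 17 genes of the unfolded protein response 14 were positive (median 0.06), among them the chaperones Hspa5 (0.14 ± 0.07) and Hyou1 (0.20 ± 0.10). Of 20 cholesterol synthesis genes 15 were positive, also with a median of 0.06. Their median effects were below 0 in both nuclei, at -0.04 in PVN (7 of 20 higher) and -0.09 in ARC (2 of 20 higher). Of 16 leptin, insulin and STAT3 genes 12 were positive, including Stat3 (0.28 ± 0.08, FDR = 0.468), with Irs1 at -0.44 ± 0.13 (FDR = 0.5). Of 11 MAP kinase feedback inhibitors 7 were positive (median 0.12), including Dusp6 at 0.43 ± 0.14 (FDR = 0.556). Of 26 synaptic vesicle genes 19 were negative (median -0.13), and of 57 oxidative phosphorylation genes 38 were (-0.03). ARC treated library 2 had the highest mean log2 CPM of the vesicle genes in its group, 8.07 against 7.09 to 7.60, and without it the 2 medians were -0.05 and -0.01. With marker covariates the vesicle median was -0.03. With all libraries no member of these lists passed for the difference.

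**Figure D5:**
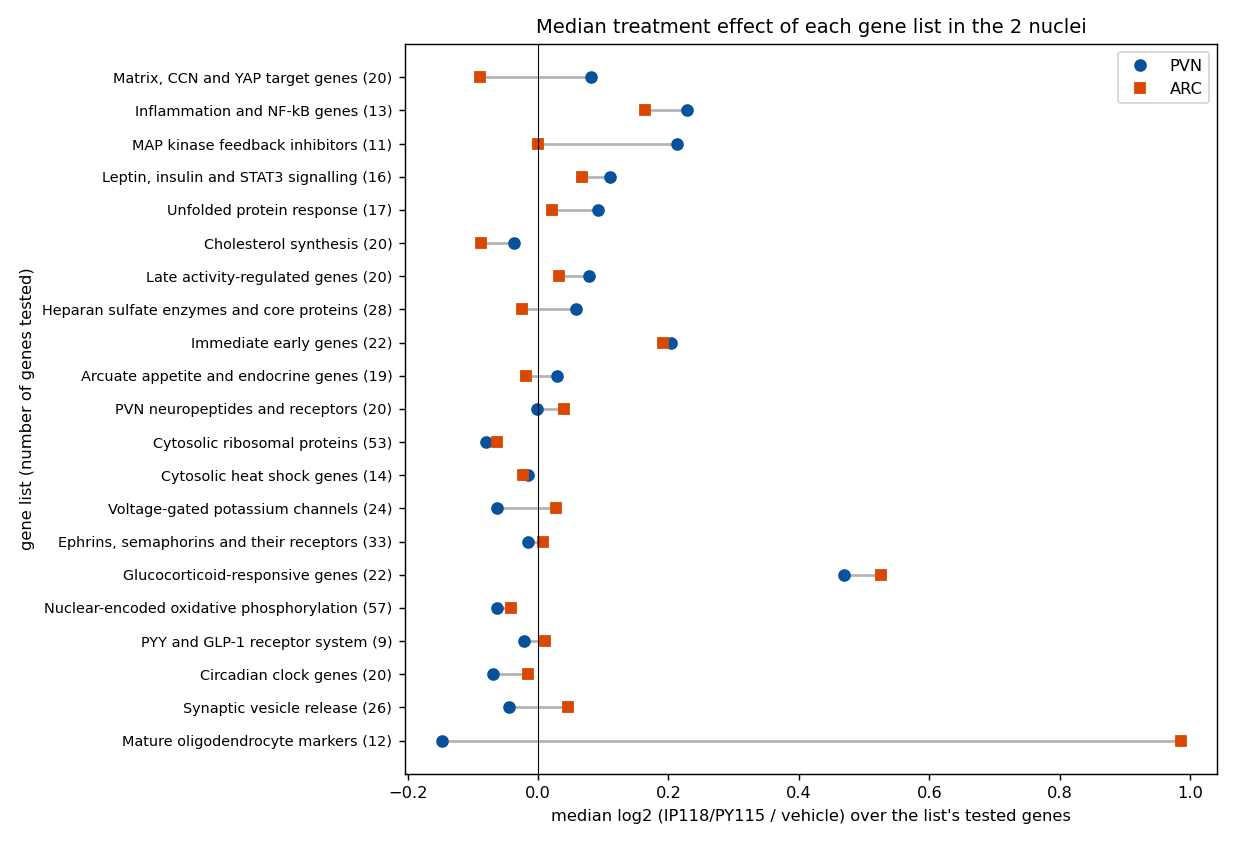
Median log2 treatment effect of each gene list in PVN (circles) and ARC (squares), with the number of genes tested in brackets and lists ordered by their median difference. The glucocorticoid list lies at 0.47 and 0.53, and the mature oligodendrocyte markers at -0.15 and 0.98.

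Markers of other cells moved with the comparison in places. With the oligodendrocyte and own-nucleus marker covariates in the fit, calls for the difference went from 4 to 0 with all libraries. Without the libraries numbered 1 they went from 46 to 65, and 40 of the 46 stayed called. Whether cell content caused any of the differences was not tested. All 12 mature oligodendrocyte markers were negative for the difference, with a median of -1.14 (0.98 in ARC and -0.15 in PVN), and none passed. Their summed level ranged from 512 to 6119 CPM in treated ARC libraries (to 2181.5 CPM without library 2) and from 501 to 1361 CPM in vehicle ones, and from 827 to 1403 CPM over both PVN groups. The vesicle gene Syt2 stood at 262 CPM in ARC treated library 2 against a group median of 13.2 CPM, and its difference of -1.94 ± 0.69 (FDR = 0.632) was -0.46 without that library (FDR = 0.887). Microglia markers were positive in 10 of 12 (median 0.17) and astrocyte markers negative in 10 of 12 (-0.14). Endothelial and mural cell markers were negative in 12 of 14 (-0.05). Pituitary hormone genes did not pass the count filter and were not tested. Gh had means of 7.42 CPM in ARC vehicle and 1.27 CPM in ARC treated libraries. The filter asks for counts in several libraries, and a mean of this size can come from few of them. Of the 17 genes listed for values by library, 6 share exonic sequence with a gene of the opposite strand (Akap7, Cdkn1a, Cyp51, Hs3st2, Ift57 and Tmem200a), and whether counting used strand is not given in the sources used here.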

How the data were processed

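RNA was measured in laser-captured PVN and ARC. The deposited table holds unnormalised read counts for each Ensembl gene; per the submitters' processing notes, the authors used bcl2fastq 2.20.0.422 and STAR 2.5.2a with build GRCm38. Per the labels the kit was stranded (TruSeq); the read counter, its strand setting and the annotation release are not given in the sources used here. Of 21935 IDs, 21858 matched a symbol; coordinates and overlaps come from GENCODE vM21.

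Counts were fitted in edgeR 4.0.16 (R 4.3.3) with 1 mean per group, filterByExpr (minimum count 10, minimum total count 15), TMM scaling and the robust quasi-likelihood test, two-sided. The contrast was the PVN effect minus the ARC effect, with Benjamini-Hochberg adjustment over all 13979 genes and calls at FDR under 0.05. CPM use TMM-adjusted totals. The script was tested on simulated data. The library totals limit genes of a few CPM most.

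The members and gene lists were chosen with earlier results of these data known. Named genes were those called with a mean of at least 5 CPM, then the smallest p up to 24, 2 members of smallest p per list, and 20 set genes; Apobec1 and the genes called without the libraries numbered 1 were added after their values were seen. A few of them are not reported here. Alternatives were DESeq2 1.42.0, limma-voom (limma 3.58.1), other scalings, filters, covariates and libraries left out. NTS libraries entered only 1 alternative.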

Additional observations from a re-analysis of the deposited data

Results flagged for a closer look

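The treatment effect differed between PVN and ARC for 4 genes by the test of the difference itself: Tmem200a (0.66 on the log2 scale), Tsc22d1 (0.51), Appl2 (-0.45) and Apobec1 (1.49).

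A search for a library far from the rest of its group covered 80 sets of values: 17 genes, 2 gene lists and the library total, each in 4 groups. It found 22, and in 16 of them the library was the one numbered 1. Chance flags about 1 in 20 such sets, but 22 is not to be read against that: most of the genes were chosen for responding to treatment, some only after the libraries numbered 1 were left out, and the sets share libraries. In the vehicle PVN group the highest library stood apart for Tsc22d1 (884 CPM), Cyp51 (201 CPM), Srxn1 (377 CPM), Nptx2 (31.9 CPM), Hs3st2 (16.6 CPM), Cdkn1a (52.6 CPM) and Cnr1 (216 CPM). In the treated PVN group it was the lowest for Tsc22d1 (570 CPM), Cyp51 (119 CPM) and the mean log2 CPM of glucocorticoid-responsive genes (4.26), and the highest for Nr3c1 (249 CPM).

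In the vehicle ARC group the highest library stood apart for Setdb2 (17.8 CPM), Noct (77.9 CPM), Cnr1 (60.03 CPM), Zbtb16 (49.3 CPM) and Cdkn1a (14.9 CPM), and the lowest for Ift57 (31.2 CPM). In the treated ARC group the lowest stood apart for Tsc22d1 (466.1 CPM), Akap7 (43.1 CPM) and the glucocorticoid-responsive genes (mean log2 CPM 4.04), and the highest for Cnr1 (105 CPM) and for the summed mature oligodendrocyte markers (6119 CPM). It was library 1 for the glucocorticoid-responsive genes and library 2 for all the others.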

How the results depend on the processing

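Calls for the difference between the nuclei numbered 4. They came to 7 with limma-voom, which kept only Tsc22d1 and Appl2 of the 4. A joint fit of 59 libraries also gave 7 and kept all 4. Library totals alone, no filter or a log10 library total covariate gave 2, without Appl2 and Apobec1. Without the vehicle libraries labelled 5553 to 5557 there was 1. There were 0 with marker covariates, without ARC treated library 2 or without libraries under 0.5 of the median total. In these 3 fits 921, 755 and 788 genes had an unadjusted p under 0.05. Leaving out the libraries numbered 1 gave 46, and with that omission a log10 total covariate, marker covariates and DESeq2, added after seeing the data, gave 39, 65 and 74. Of the 46, these kept 39, 40 and 45. Calls for PVN, 138, became 212 with DESeq2, 596 with limma-voom, 240 at an FDR of 0.1, 47 with the log10 total covariate, 410 without the libraries numbered 1, 41 without the vehicle libraries labelled 5553 to 5557 and 44 without the shallow ones. Calls for ARC, 10, became in that order 70, 64, 39, 2, 188, 0 and 3, and also 16 with library totals alone or no filter, 22 in the joint fit, 57 with marker covariates and 5 without ARC treated library 2. Leaving out 1 library at a time gave 0 to 12 calls for the difference (0 in 10 of 39 fits, 11 without PVN vehicle 1 and 12 without PVN treated 1), 54 to 297 for PVN and 2 to 84 for ARC. The median differences of the 20 lists moved by less than the spread between libraries in 12 alternatives and in the fits without 1 library. That spread is larger than most of the medians themselves, so a fall to 0 would also count as unmoved. The vesicle median, -0.13 with all libraries and -0.05 without ARC treated library 2, is an example. No paired analysis was possible because the labels do not tie libraries to animals and library numbers are not shared between groups. Counts limit low genes such as Apobec1 most.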
